A study of Rattus norvegicus with 9 samples.

Results

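The cytosolic ribosomal proteins are the protein components of the ribosome that translates nuclear-encoded mRNA. Their loci were taken by gene symbol: every symbol in the deposited gene tables that begins with Rpl or Rps followed by a number, the stalk genes Rplp1 and Rplp2, without the muscle paralog Rpl3l and without the kinases named Rps6k. This gave 78 loci with 72 symbols, among 29328 loci built from reference transcripts. Large-subunit symbols name 50 of the loci and small-subunit symbols 28. In 56 loci the reference transcript has introns. The other 22 have no intron of 100 nt or more; 9 of these are named as pseudogenes, and of the remaining 13 with a gene symbol, 12 carry the symbol of a gene that RefSeq (assembly GRCr8) puts on another chromosome.

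The libraries are RNA sequencing of Sprague-Dawley rat heart in 3 groups of 3. Fetal libraries come from ventricle at embryonic day 18, with RNA isolated with Trizol, and their titles number litters. In the TAC group the adult aortic arch was narrowed (transverse aortic constriction), which loads the heart with pressure; the sham group had the operation without narrowing. Both adult groups are left ventricle, with RNA isolated with a Qiagen RNeasy kit. Age, chamber and isolation method differ together between the fetal and adult libraries and cannot be told apart. The sources used here give neither the time after surgery nor whether each adult library is 1 animal. The p-values therefore reflect only how these libraries vary, part of which may be technical.

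Each ribosome holds a single copy of most of these proteins, and cells keep their output in balance with ribosomal RNA. Most of their mRNAs begin with a run of pyrimidines, the 5′ terminal oligopyrimidine (TOP) motif, through which growth signalling by mTOR sets how well they are translated. Many have processed pseudogenes, intronless copies of the mRNA inserted elsewhere in the genome, so that short reads can match several loci. Fetal cardiomyocytes still divide, while adult ones grow mainly in size, and pressure overload makes them enlarge. The series compares the 3 groups to ask which fetal transcripts return under overload.

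A list of 79 ribosomal protein genes shows how far the symbols reach. An intron-containing locus with the right symbol was present for 53 of the 79, an intronless locus alone for 5, and no locus with the symbol for 21. The 21 include Rplp0, Rpsa, Rps27a, Rps6, Rps18 and Rps19. They are not analysed here, and the results speak for the loci that carry a symbol. The symbol was present in all 9 libraries for 14 of the 78 loci and in 1 library for 17, because each library was assembled separately and an assembled gene can replace the name. Values were therefore followed through the reference transcripts.

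RefSeq promoters (assembly GRCr8) were available for 50 of the 72 symbols, and for 44 the entry lies on the chromosome of the member's intron-containing locus. The windows below run from 25 bases before to 25 bases after the annotated start and are shown for 4 genes of the members called in the fetal comparisons (for Rps4x, the gene on chromosome X) and for 5 others with CTTTC, shown as examples of it. Capitals mark CTTTC, a pyrimidine string often seen at TOP starts. The annotated start need not be the one used in these hearts.
Rpl3 (chr7:113507966-113508015, minus strand): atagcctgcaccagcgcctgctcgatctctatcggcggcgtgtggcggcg
Rpl11 (chr5:153560778-153560827, minus strand): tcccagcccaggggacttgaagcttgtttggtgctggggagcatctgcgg
Rpl5 (chr14:1995201-1995250, minus strand): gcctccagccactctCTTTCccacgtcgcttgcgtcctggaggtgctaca
Rps4x (chrX:71342897-71342946, minus strand): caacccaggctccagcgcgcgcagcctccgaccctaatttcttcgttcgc
Rpl19 (chr10:83519039-83519088, plus strand): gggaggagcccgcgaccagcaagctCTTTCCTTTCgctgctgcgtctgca
Rpl29 (chr8:115947618-115947667, plus strand): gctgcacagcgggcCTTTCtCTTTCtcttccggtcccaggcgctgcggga
Rplp1 (chr8:71290848-71290897, minus strand): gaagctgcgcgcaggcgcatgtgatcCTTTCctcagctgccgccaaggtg
Rps7 (chr6:50999421-50999470, minus strand): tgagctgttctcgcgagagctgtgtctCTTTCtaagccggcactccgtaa
Rps14 (chr18:56498235-56498284, plus strand): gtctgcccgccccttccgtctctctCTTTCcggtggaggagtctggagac

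CTTTC on the gene's strand stood in this window in 25 of the 44 member promoters (56.8%), against 6.51% of 27457 promoters in the table. Counting either strand gave 56.8% of the members and 12.5% of all promoters. In the whole 300-base promoter, CCGGAA on either strand, the core that ETS factors bind, was present in 24 of 44 members (54.5%) and in 15.8% of all. TATAAA on either strand was present in 11.4% of the members and in 14.3% of all. Of the called loci with a window, Rpl5 has CTTTC, while Rpl3 and Rpl11 do not. The Rps4x window, of the chromosome X gene that was not called, does not have it either. The median log2 difference between fetal and sham ventricle was 0.28 over the 25 members with CTTTC and 0.33 over 18 tested members without it. The latter leave out Rpl36a, also without CTTTC, whose tested locus on chromosome X had 0.71.

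Levels are FPKM, which counts fragments relative to transcript length and library size. The deposited values carry a further constant in each library and were rescaled by the median of ratios. In units of 1000000 fragments, the depth implied by the deposited confidence bounds ran from 12.5 to 18.6 in fetal, 4.76 to 9.05 in TAC and 8.81 to 17.3 in sham libraries. Of the 78 loci, 70 reached a rescaled FPKM of 1 in at least 3 libraries and were tested, 55 with introns and 15 without. Of the other 8 loci, 2 (Rpl7a-ps3 and Rps4y2) were not listed in every library and 6 lay below the filter. Among these 6, Rpl26-ps2, the intron-containing Rpl36a locus on chromosome 4 and the intronless Rps16 locus on chromosome 5 were listed at 0 in every library. Rpl21-ps6, Rps2-ps5 and the intronless Rpl23 locus on chromosome 2 never passed 1.29.

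Ribosomal protein mRNA took a larger part of the fetal libraries. Summed over the members, it made up 2.64%, 1.86% and 1.98% of the library total in fetal replicates 1 to 3, 1.10%, 1.14% and 1.32% in TAC replicates 1 to 3, and 1.44%, 1.14% and 0.77% in sham replicates 1 to 3. All 3 fetal libraries lay above all 6 adult ones, while TAC and sham overlapped. Without the 5 highest members the share was 2.12%, 1.06% and 1.3% in fetal replicates 1 to 3, 0.881%, 0.848% and 1.04% in TAC and 1.21%, 0.884% and 0.615% in sham libraries, and fetal replicate 2 lay below sham replicate 1. Over loci with introns alone it also lay below, with 1.01% in fetal replicate 2 and 1.23% in sham replicate 1. The mean was 2.16% ± 0.424 in fetal, 1.19% ± 0.117 in TAC and 1.12% ± 0.334 in sham ventricle (SD, n = 3 each). Counting reference transcripts alone, without the transcripts each library assembled anew, the means were 2.93%, 1.43% and 1.43% for fetal, TAC and sham. A share also depends on the level of all other transcripts in the library, and their part was not tested. In bulk tissue, more cells that make much of these mRNAs and more mRNA per cell cannot be told apart.

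Mean levels over the 9 libraries ran from 0.577 (Rpl29-ps1) to 1132 rescaled FPKM (Rps4x on chromosome 4). Among the 5 highest means over all libraries were the Rps4x locus on chromosome 4, Rps29 on chromosome 13, Rpl31-ps1 and Rps15. Of these, the first 3 have no introns and Rps4x and Rps29 carry the symbol of a gene elsewhere, and how reads that match several copies were assigned is not stated in the labels. The part of the parent genes in these values was not tested. The mean of Rpl31-ps1 (664) rests mostly on fetal replicate 2, with 4729 rescaled FPKM against 82.1 to 328 in the other libraries. Rpl31-ps1 is also among the 5 highest members left out of the summed share above. Rps29, a small-subunit protein, had 661, 1267 and 1093 rescaled FPKM in fetal replicates 1 to 3, 478, 1146 and 1014 in TAC and 363, 727 and 297 in sham libraries. Fetal and sham values overlapped, and the log2 difference of 1.18 was not called (limma, adjusted p = 0.0585; 0.0109 with the replicate block). Rps15, a small-subunit protein, had 581, 516 and 636 in fetal, 513, 505 and 439 in TAC and 482, 344 and 439 in sham libraries. Every fetal library was above every adult one, but the log2 difference of 0.46 ± 0.17 (SE) between fetal and sham missed the threshold (limma, adjusted p = 0.0571; 0.0257 with upper-quartile scaling and 0.0472 without sham replicate 1).

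In fetal against sham ventricle, the members leaned upward and few passed the test. On the log2(value + 1) scale, the difference was above 0 in 54 of 70 members (77.1%), against 51.7% of all 14045 tested loci. Its median was 0.41 against 0.04 over all loci. The 55 loci with introns had a median of 0.28, with 74.5% above 0. The 15 loci without introns had a median of 1.09, with 86.7% above 0. At a Benjamini-Hochberg adjusted p below 0.05 (limma), 5 of 70 members (7.14%) were called, all higher in fetal ventricle, against 46.0% of all loci called in either direction and 22.7% called higher. Among the 5 were Rpl3, the Rps4x locus on chromosome 4, Rpl11 and Rpl5. No member was called lower, against 23.4% of all loci; at an unadjusted p below 0.05, 12 members passed, against 53.0% of all loci. Groups did not overlap, with fetal above sham, for 9 of 70 members (12.9%), against 29.3% of all loci.

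The spread between libraries of a group was wide for these loci. The median within-group SD on the log2 scale was 0.91 over the tested members and 0.31 over all tested loci. The members are also short, with a median transcript of 565 nt against 1853 nt; among the 3021 tested loci of at most 1000 nt, the median SD was 0.60 and 29.9% were called in fetal against sham. The part of the spread or of length in the low count of members was not tested. Rps15 and Rpl14 were the steadiest members, with within-group SDs of 0.18 and 0.19, and Rpl36al varied most, with 3.03.

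The replicate number was also fitted as a block, a choice made from correlations in these same data. With it, 15 of 70 members were called in fetal against sham, all higher, against 48.1% of all loci. The 10 further members were Rpl10, Rpl15, Rpl21, Rpl23 on chromosome 10, Rpl29 and Rps26 among loci with introns, and Rpl26-ps1, Rpl36, Rpl6-ps1 and Rps29 among loci without. Without 1 library the count ran from 3, without sham replicate 3, to 9, without TAC replicate 1 or sham replicate 1. The share of all loci called in those fits is not given here. Of the 3 calls without sham replicate 3, 2 were higher, Rpl3 and Rps4x on chromosome 4, and Rps14 was lower (log2 difference -3.49, adjusted p = 0.03). Without fetal replicate 2, Rpl26 was called lower (-2.70, adjusted p = 0.0168).

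Rpl3, a core protein of the large subunit that reaches toward the peptidyl transferase centre, changed most among the called members. The locus lies at chromosome 7: 118314535 to 118319911 (rn4). It had 886, 656 and 549.7 rescaled FPKM in fetal replicates 1 to 3, against 179, 118 and 129 in TAC and 233, 138 and 129.8 in sham libraries. The lowest fetal library was more than double the highest adult one. The log2 difference was 2.08 ± 0.28 (SE) against sham (adjusted p = 0.000479) and 2.28 ± 0.28 against TAC (adjusted p = 0.000292). Its call held under each of the 21 alternatives, with log2 differences of 1.89 to 2.34 against sham. The muscle paralog Rpl3l, which takes the place of Rpl3 in adult striated muscle, ran the other way, with 0.123, 0.166 and 0.127 in fetal, 388, 553 and 436 in TAC and 357, 450 and 547 in sham libraries. Its log2 difference between fetal and sham was -8.61 (adjusted p = 9.66e-08).

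Of the 2 reference transcripts of Rpl3, the one first in order held 63.9%, 70.6% and 84.8% of the locus in fetal replicates 1 to 3, and 0%, 87.4% and 76.6% in TAC replicates 1 to 3. In sham replicates 1 to 3 it held 0%, 79.8% and 48.3%. In the adult replicates numbered 1 the other transcript took the whole locus, and the groups overlapped.

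Rpl5 and Rpl11 bind the 5S ribosomal RNA and carry it into the large subunit; when free, they also bind Mdm2 and so stabilise p53. Both were higher in fetal ventricle than in sham and TAC. Rpl5 (chromosome 14: 2397640 to 2404072) had 888, 516 and 600.1 in fetal, 415, 330.0 and 315 in TAC and 461, 364 and 378 rescaled FPKM in sham libraries. Rpl11 (chromosome 5: 154826978 to 154830488) had 719, 381 and 620.3 in fetal, 394, 312 and 310.0 in TAC and 362, 268 and 268 in sham libraries. For Rpl5 the fetal libraries lay above all adult ones; for Rpl11 fetal replicate 2 lay below TAC replicate 1.

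Against sham, the log2 difference was 0.70 ± 0.23 for Rpl5 (SE, adjusted p = 0.0327) and 0.90 ± 0.25 for Rpl11 (adjusted p = 0.019). Against TAC it was 0.89 ± 0.23 for Rpl5 (adjusted p = 0.0121) and 0.72 ± 0.25 for Rpl11 (adjusted p = 0.0463). The calls against sham were lost for both without fetal replicate 1, fetal replicate 3, sham replicate 2 or sham replicate 3, with adjusted p of 0.0572 to 0.094 for Rpl5 and 0.0584 to 0.0635 for Rpl11. Over all alternatives the adjusted p against sham ran from 0.00757 to 0.094 for Rpl5, whose call was also lost with fetal and sham libraries alone, and from 0.00352 to 0.0635 for Rpl11. The call of Rpl11 against TAC was lost in 10 of 21 alternatives, with adjusted p from 0.00761 to 0.143 over all; it was lost without fetal replicate 1 or 3, without sham replicate 2 or 3 and without TAC replicate 2 or 3. The call of Rpl5 against TAC was kept in all 21.

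**Figure D1:**
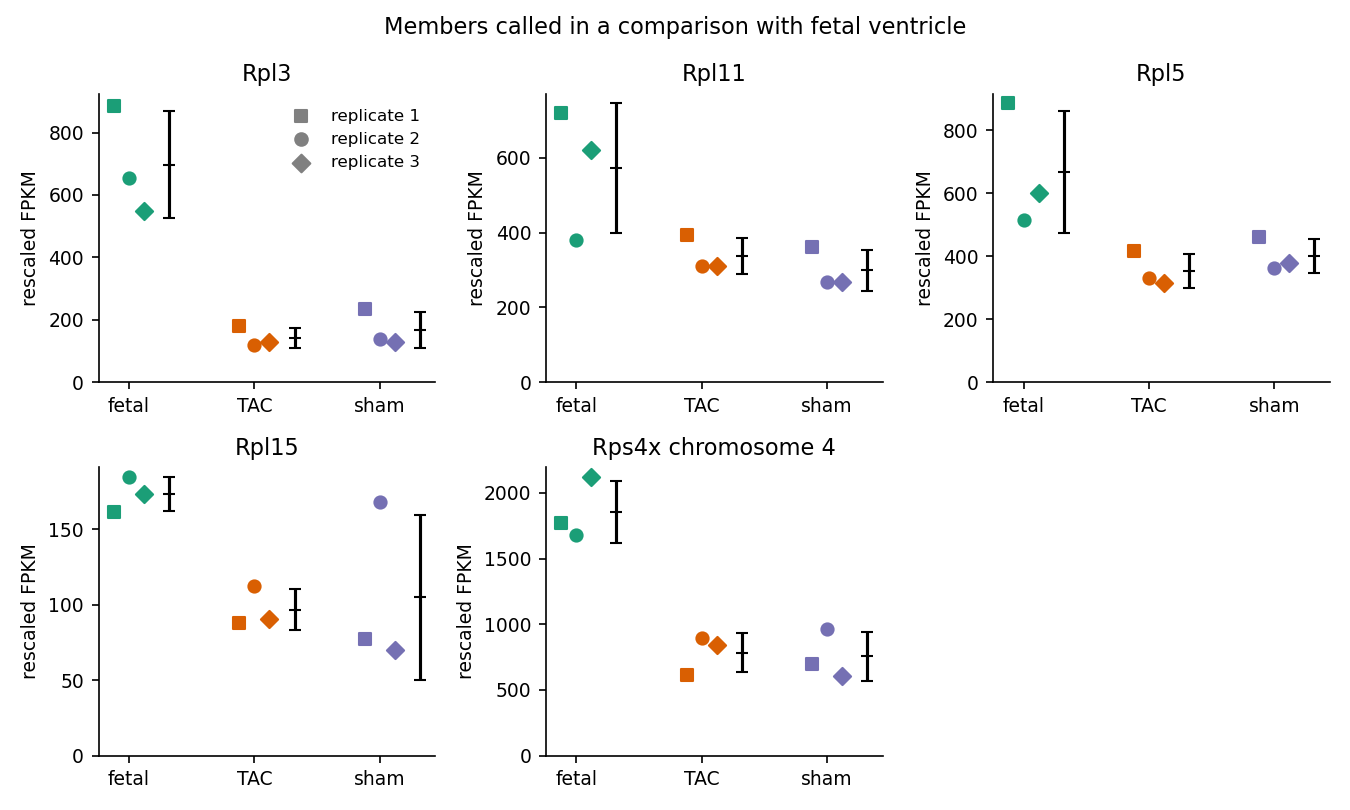
Rescaled FPKM of 5 members called in a comparison with fetal ventricle, by group; symbols mark the replicates, and the bars are mean and SD (n = 3). For Rpl3 the fetal libraries sit between 549.7 and 886 and all adult libraries at 233 or below; Rpl15 in sham replicate 2 (168) reaches into the fetal range.

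Rpl15, a large-subunit protein (chromosome 15: 9082190 to 9085472), had 162, 184 and 173 in fetal, 87.6, 112 and 90.4 in TAC and 77.0, 168 and 69.7 rescaled FPKM in sham libraries. Sham replicate 2 stood in the fetal range, with 64% of its value in an assembled transcript. The log2 difference was 0.83 ± 0.30 against sham (SE, adjusted p = 0.0505) and 0.84 ± 0.30 against TAC (adjusted p = 0.0491). With reference transcripts alone the difference from sham was 1.49 (adjusted p = 0.00143), without sham replicate 2 it was 1.23 (adjusted p = 0.00096), and with the block it was 0.83 (adjusted p = 0.0204); over all alternatives the adjusted p ran from 0.00096 to 0.198. The call against TAC was lost in 11 of 21 alternatives, among them leaving out any 1 TAC or fetal library or sham replicate 1, with adjusted p from 0.00253 to 0.153 over all.

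Fetal against TAC ventricle shares the fetal libraries with the comparison above. Here 59 of 70 members lay above 0 (84.3%, against 51.3% of all loci), with a median log2 difference of 0.47 against 0.03. The median was 0.44 over loci with introns and 0.50 over loci without. Again 5 members were called, all higher in fetal: Rpl3, the Rps4x locus on chromosome 4, Rpl5, Rpl15 and Rpl11. They are 7.14% of the tested members, against 46.1% of all loci called in either direction, 23.0% called higher and 23.1% called lower; of loci of at most 1000 nt, 29.6% were called. At an unadjusted p below 0.05, 7 members passed, against 53.0% of all loci. Groups did not overlap, with fetal above TAC, for 8 members (11.4%, against 28.5% of all loci), and with fetal below TAC for 0 (27.8%).

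With the replicate block, 11 members were called against TAC, all higher, against 48.2% of all loci; Rpl21, Rpl28, Rps26, Rpl36a on chromosome X and Rpl6-ps1 were among those that joined. Without 1 library the count ran from 3, without TAC replicate 2, TAC replicate 3 or fetal replicate 1, to 8, without fetal replicate 3. The share of all loci called in these fits is likewise not given here.

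In TAC against sham ventricle, no member was called by limma, and none passed at an unadjusted p below 0.05, against 2 of 14045 loci called (0.0142%; 0.00712% higher and 0.00712% lower) and 4.31% below 0.05 unadjusted. The log2 difference was above 0 in 36 of 70 members (51.4%, against 48.9% of all loci), with a median of 0.03 against -0.01. Groups did not overlap for 2 members, Rpl28 and Rps23, which were lower in TAC (2.86%, against 4.6% of all loci). Rpl28, a large-subunit protein, had 58.0, 29.2 and 27.0 in TAC and 168, 62.9 and 93.0 rescaled FPKM in sham libraries. Between 80.6% and 100% of each sham value was in assembled transcripts, against 0%, 0% and 23.9% of the TAC values in replicates 1 to 3. Rps23, which sits at the decoding centre, had 107, 109.9 and 114 in TAC and 183, 127 and 129.8 in sham libraries. The count of 0 held under all alternatives run. A p above the threshold does not show that the groups were alike.

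**Figure D2:**
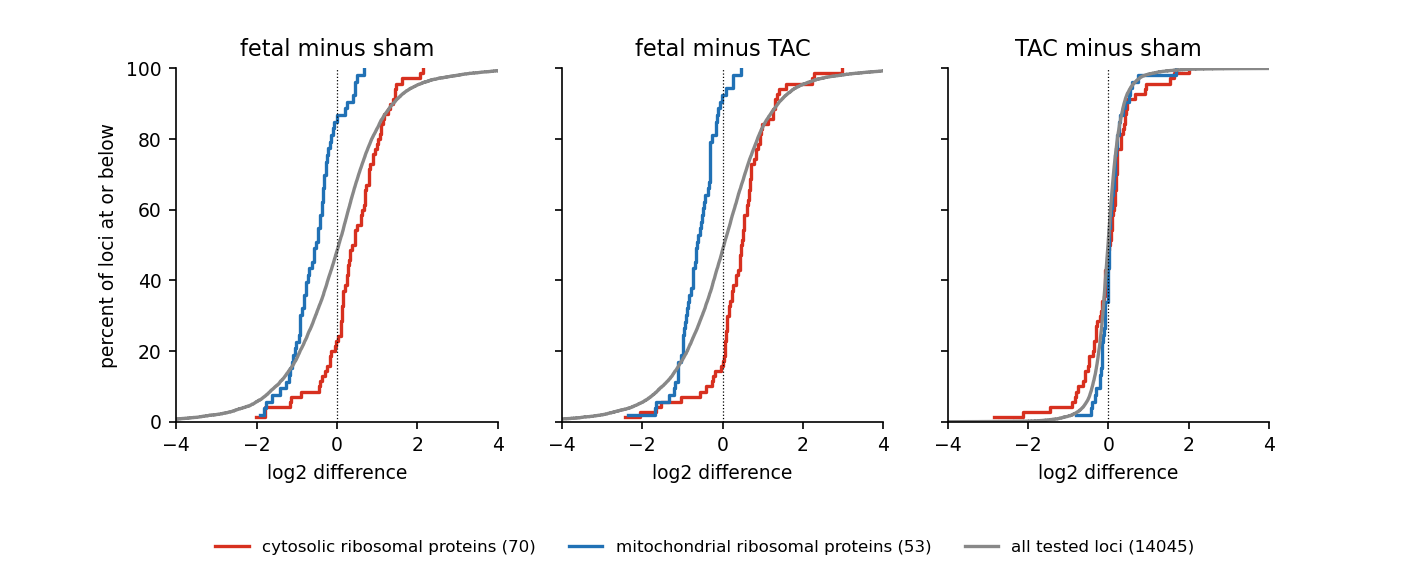
Percent of loci (vertical axis) at or below a log2 difference (horizontal axis) for the 70 tested cytosolic ribosomal protein loci, 53 mitochondrial ribosomal protein loci and all 14045 tested loci, in each comparison. In both comparisons with fetal ventricle the cytosolic curve lies right of all loci over most of its range (medians 0.41 and 0.47) and the mitochondrial curve left of them (medians -0.51 and -0.63); in TAC minus sham the 3 medians lie within 0.03 of 0.

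The symbol Rps4x names 2 loci, and their sequences were not compared. Rps4x encodes a small-subunit core protein, and its gene has introns and lies on chromosome X. The locus without introns at chromosome 4: 34793785 to 34794587 (rn4) was the highest member, with 1767, 1678 and 2119 rescaled FPKM in fetal, 613, 896 and 845 in TAC and 699, 962 and 606 in sham libraries. Every fetal library was above every adult one. The log2 difference was 1.31 ± 0.24 against sham (SE, adjusted p = 0.00235) and 1.25 ± 0.24 against TAC (adjusted p = 0.00303), and both calls held under all 21 alternatives.

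The Rps4x locus on chromosome X had 211, 31.0 and 11.6 in fetal, 99.4, 8.26 and 11.6 in TAC and 108, 25.1 and 21.7 rescaled FPKM in sham libraries. Its values were highest in replicate 1 of each group, and it was not called. The ratio of the chromosome 4 locus to the chromosome X locus was 8.36, 54.1 and 182 in fetal, 6.16, 109 and 72.7 in TAC and 6.49, 38.4 and 27.9 in sham replicates 1 to 3. In every group the ratio was lowest in replicate 1. Summed over both loci, the difference between fetal and sham was 1.28 (adjusted p = 0.0016), and between fetal and TAC 1.24 (adjusted p = 0.00197).

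The same replicate pattern was present in 27 of the 70 tested members (38.6%). Replicate 1 was above replicates 2 and 3 in all 3 groups for 24 of the 55 tested loci with introns (43.6%), for 3 of the 15 without (20%), and for 9.54% of all tested loci. It was below them in all 3 groups for 1 locus with introns, Rpl36al, and for 2 without, Rpl26-ps1 and Rpl6-ps1, together 4.29% of the tested members against 9.76% of all loci. The median log2 difference of replicate 1 from the mean of the other two was 1.19 in fetal, 0.44 in TAC and 0.79 in sham libraries over the loci with introns, against -0.01, 0.01 and 0.00 over all loci. Over the loci without introns it was 0.20, -0.19 and 0.26 for fetal, TAC and sham. The shortest transcript that each library assembled was 43 nt in replicate 1 of every group and 63 nt in the other 6 libraries, and the part of this in the pattern was not tested.

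Rps7 and Rpl6-ps1 are given as examples chosen after their values were seen. Rps7, a small-subunit protein that also binds Mdm2, had 148, 10.8 and 17.5 in fetal, 139, 11.8 and 8.16 in TAC and 129, 14.5 and 8.77 rescaled FPKM in sham libraries. The replicates numbered 1 stood far above the others in every group, and the groups overlapped. Rpl6-ps1, without introns, had 464, 782 and 747 in fetal, 285, 508 and 475 in TAC and 290.5, 476 and 371 in sham libraries. Here the replicates numbered 1 were the lowest of each group.

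**Figure D3:**
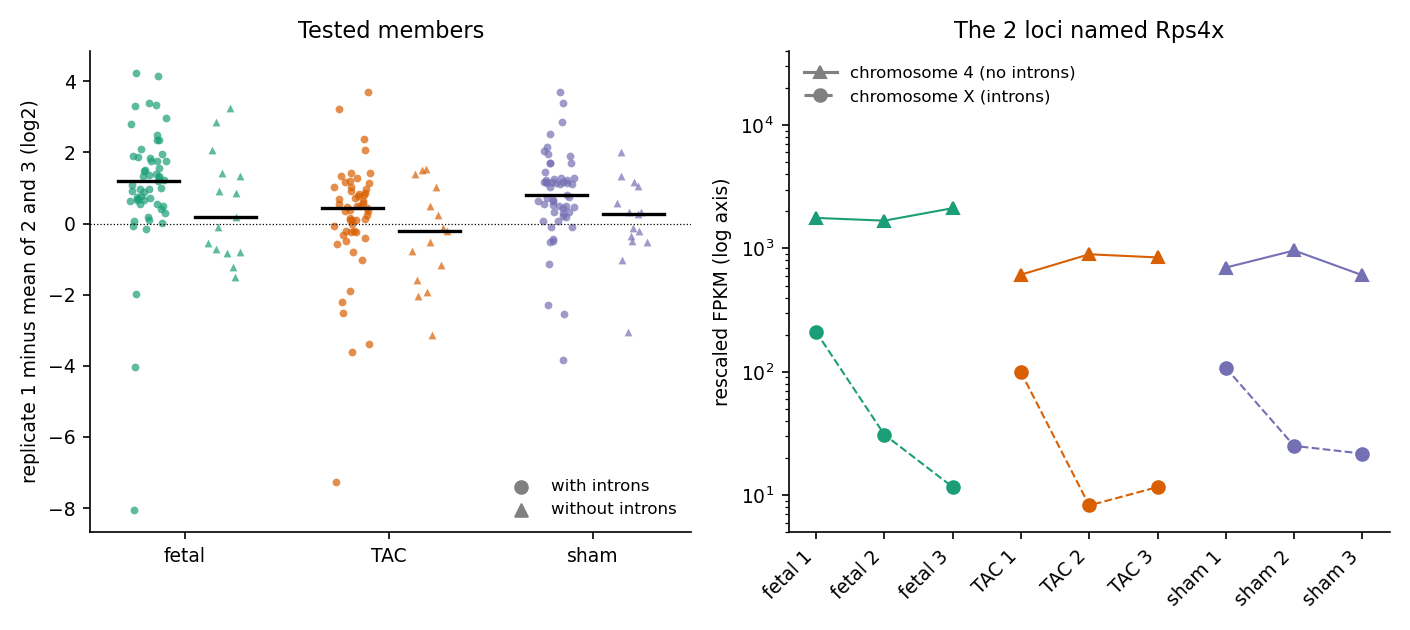
Left, the difference of replicate 1 from the mean of replicates 2 and 3 (log2) for each tested member in each group, with medians as bars, for loci with introns (circles) and without (triangles). Right, rescaled FPKM (log axis) of the 2 Rps4x loci in each library: the locus without introns stays between 606 and 2119, while the locus on chromosome X is between 99.4 and 211 in replicate 1 and at 31.0 or below in replicates 2 and 3.

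The stalk proteins Rplp1 and Rplp2 recruit the elongation factors. Rplp1 had 20.3, 501 and 241 in fetal, 353, 476 and 468 in TAC and 388, 392 and 191 rescaled FPKM in sham libraries. Rplp2 had 161, 67.8 and 28.4 in fetal, 69.8, 130.2 and 59.6 in TAC and 169.8, 65.0 and 40.1 in sham libraries. Neither was called in any comparison, and fetal replicate 1 was the lowest of the 9 libraries for Rplp1.

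Some ribosomal proteins have a paralog form besides the parent gene. Rpl22l1, an alternative to Rpl22, had 21.3, 34.1 and 14.6 in fetal, 11.3, 67.9 and 45.8 in TAC and 42.0, 63.8 and 10.3 rescaled FPKM in sham libraries. Rpl22 had 104, 50.9 and 10.9 in fetal, 55.9, 27.1 and 35.3 in TAC and 79.6, 51.1 and 25.0 in sham libraries. For both the groups overlapped and nothing was called.

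Rpl36al, a form of Rpl36a, had 0, 271 and 264 in fetal, 138, 306 and 257 in TAC and 8.44, 222 and 80.5 rescaled FPKM in sham libraries. Its parent Rpl36a on chromosome X was low, with 28.9, 10.7 and 7.60 in fetal, 4.28, 4.21 and 6.43 in TAC and 18.5, 4.76 and 5.11 in sham libraries. In replicates 2 and 3 of every group the Rpl36al locus was the higher of the pair, whereas in fetal and sham replicate 1 the parent was.

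The locus named Rps27l is intronless and lies at chromosome 2: 190479652 to 190479907 (rn4). The locus is reported by its position, because the Rps27l gene is on another chromosome. It had 9.73, 26.5 and 11.5 in fetal, 1.31, 39.2 and 9.17 in TAC and 4.81, 11.2 and 4.49 rescaled FPKM in sham libraries. Rps27, the parent gene, had 107, 72.9 and 65.4 in fetal, 20.1, 79.1 and 77.1 in TAC and 40.2, 88.7 and 15.8 in sham libraries. The locus named Rpl26l1, also intronless and away from its gene, was at or below 2.84 in all adult libraries and at 17.3, 1.11 and 0.775 in fetal ones. Rpl26 itself had 19.4, 63.9 and 3.92 in fetal, 59.0, 28.2 and 30.8 in TAC and 117, 57.6 and 38.6 in sham libraries, with overlap throughout.

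For 5 members a single library was at 20 rescaled FPKM or more and at least 3-fold above the next; they were chosen after their values were seen. Rpl26l1 in fetal replicate 1 was as far above the next library at a lower level. Rpl31-ps1, an intronless locus, reached 4729 rescaled FPKM in fetal replicate 2, against 328 and 125 in the other fetal libraries, 156, 118 and 103 in TAC and 152, 181 and 82.1 in sham. This value rests on a reference transcript and on about 39217 implied fragments. Rpl7 reached 2334 in TAC replicate 3, Rpl27 606 and Rpl37a 277 in fetal replicate 1, and of these values 100%, 93.6% and 92.1% sat in assembled transcripts. Rps14 reached 69.1 in sham replicate 1. None of the 5 was called with all libraries. Without fetal replicate 3, Rpl31-ps1 was called higher in fetal than in sham (3.24, adjusted p = 0.0331) and TAC (3.32, adjusted p = 0.0304). Short members were listed at 0 in single libraries: Rpl37, Rpl39, Rps21 and Rps28 in TAC replicate 1, Rps21 also in fetal replicate 3, and Rpl36al in fetal replicate 1. By contrast, the other TAC libraries had 159.7 and 146 rescaled FPKM for Rpl39.

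Other genes of the pathway were counted in the same way, beside the 22.7% of all loci called higher and 23.4% called lower in fetal against sham. Of 13 tested genes among 22 other TOP mRNAs, which encode translation factors and RNA-binding proteins, 2 were higher and 1 lower in fetal ventricle against sham, and the same numbers held against TAC. Pabpc1, the poly(A)-binding protein, had 672, 334 and 474 in fetal, 156, 81.7 and 90.8 in TAC and 156, 74.7 and 86.7 rescaled FPKM in sham libraries (log2 difference 2.23 from sham, adjusted p = 0.00145). Npm1, a nucleolar chaperone of ribosome assembly, was higher by 1.77 (adjusted p = 0.00457) and Gltscr2, a nucleolar protein, was lower at -0.84 (adjusted p = 0.00835; 0.0928 with reference transcripts alone and 0.0723 with replicates 2 and 3 only). Its call against TAC (-0.75, adjusted p = 0.0142) was lost in 5 of 20 alternatives, among them without TAC replicate 2 (0.0512) and without fetal replicate 1 (0.0515), with adjusted p of 0.00784 to 0.15 over all. Npm1 is also on the next list. The median of the 13 was 0.35 in fetal against sham.

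Of 38 tested genes among 62 for ribosome biogenesis, 16 were higher and 1 was lower in fetal against sham, and 18 were higher and 1 lower against TAC. Their medians were 0.47 and 0.49. Nop58, a core protein of the small nucleolar particles that methylate ribosomal RNA, had 76.0, 65.2 and 69.6 in fetal, 23.3, 19.9 and 20.7 in TAC and 22.2, 19.6 and 21.0 rescaled FPKM in sham libraries. Its log2 difference was 1.70 against sham (adjusted p = 1.84e-05) and 1.68 against TAC (adjusted p = 2.05e-05). Exosc2, of the RNA exosome, was higher by 1.78 against sham (adjusted p = 0.000372; 0.312 with reference transcripts alone), and Taf1b, of the RNA polymerase I initiation complex, by 1.78 against TAC (adjusted p = 0.00157). Sbds, which helps release a factor that keeps the subunits apart, was the gene that was lower (-0.86 against sham), named after its values were seen.

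Among 12 tested regulators of ribosomal protein output, of 32 on the list, 3 were higher and 2 lower in both fetal comparisons, close to the shares over all loci. Myc, which drives transcription of ribosome genes, had 14.3, 16.7 and 17.3 in fetal, 3.81, 5.19 and 4.56 in TAC and 2.38, 1.76 and 3.22 rescaled FPKM in sham libraries (2.32 against sham, adjusted p = 5.7e-05). Mycn was higher by 1.88 (adjusted p = 6.55e-05), as was Eif4ebp1, the mTOR target that holds back cap-dependent initiation, by 1.74 (adjusted p = 0.000102). Maf1, a repressor of RNA polymerase III, had 32.6, 41.2 and 37.7 in fetal, 113, 185 and 119.5 in TAC and 119, 157 and 106 in sham libraries (-1.74 against sham, adjusted p = 0.000363). Rptor, the mTOR complex subunit, was the other that was lower (-0.60 against sham, adjusted p = 0.0116, and -0.42 against TAC, adjusted p = 0.0499), also named after its values were seen.

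Mitochondrial ribosomal proteins, which serve the separate ribosome of the organelle, were called mostly in the other direction. Of 53 tested loci, 1 was higher and 26 were lower in fetal against sham, and 1 was higher and 24 lower against TAC. The medians were -0.51 and -0.63. Mrpl34 had 39.8, 32.5 and 26.6 in fetal, 203, 144 and 174 in TAC and 92.0, 184 and 94.4 rescaled FPKM in sham libraries. Its log2 difference was -1.82 against sham (adjusted p = 0.00106) and -2.36 against TAC (adjusted p = 0.00026); with reference transcripts alone the adjusted p was 0.113 against sham and 0.0746 against TAC. Mrpl33 (-1.92, adjusted p = 0.00759) and Mrps23 (-1.77, adjusted p = 0.00244; 0.177 with reference transcripts alone) were lower than in sham. Mrps34 was lower than in TAC (-1.65, adjusted p = 0.00381; 0.0585 with reference transcripts alone). The median within-group SD of these loci was 0.30, and 50.9% were called against sham. No gene of these 4 lists was called in TAC against sham.

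Cell type markers differed between fetal and adult libraries. Of 9 erythroid markers 5 were tested, and 2 (Hbe1 and Hemgn) were higher in fetal against sham. Hbe1 was listed at 0 in 4 of the 6 adult libraries. The sum of the 5 was 17073 to 27249 in fetal, 4968 to 10101 in TAC and 5026 to 12556 rescaled FPKM in sham libraries. Most of each sum was Hba-a2, with 16676 to 27035 in fetal, 4947 to 10036 in TAC and 4998 to 12507 in sham libraries. Hba-a2 was not called against sham (limma, adjusted p = 0.0958). All 5 tested fibroblast markers of 8 and all 6 tested macrophage markers of 7 were lower in fetal: the fibroblast sum was 155 to 223 in fetal, 1480 to 1577 in TAC and 1034 to 1475 in sham libraries, and the macrophage sum 58.1 to 68.4 in fetal, 294 to 487 in TAC and 275 to 508 in sham. Of 7 endothelial markers 4 were tested and 3 were lower against sham, with sums of 94.1 to 171 in fetal, 194 to 296 in TAC and 162 to 284 in sham. Of 6 lymphocyte markers 4 were tested and 3 were lower against sham, with sums of 1.71 to 2.37 in fetal, 53.8 to 70.3 in TAC and 49.8 to 64.3 in sham, and Cd3e was listed at 0 in all fetal libraries. Of 10 cardiomyocyte markers only Actc1 carried a symbol, with 135703 rescaled FPKM in fetal replicate 2 and 14062 to 27201 in the other 8 libraries; it was not called. The part of cell composition in the ribosomal protein differences was not tested.

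The genes whose pattern over the 9 libraries was most like the median member were Ipo11 (Pearson r = 0.93), Hmgn2 (0.93), Srm (0.92), Sms (0.91) and RGD1310571 (0.91), on the log2(value + 1) scale. All libraries share the group and replicate differences described above. The median member stood at 7.77, 7.01 and 6.41 in fetal, 6.65, 6.70 and 6.28 in TAC and 7.15, 6.38 and 5.75 in sham replicates 1 to 3. Fetal replicate 1 was the highest and sham replicate 3 the lowest of the 9.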

How the data were processed

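The 9 heart RNA libraries were prepared with the Illumina TruSeq kit, per the labels' protocols. Reads were processed with TopHat 1.3.1, Cufflinks 1.0.3 and Cuffdiff (version not given in the sources used here) on rat build rn4, per the submitters' processing notes. The authors deposited FPKM with confidence bounds per gene and isoform, from a separate assembly of each library. The kit does not mark strand.

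From these, 39492 reference transcripts were joined across libraries and merged into a locus if at least 5 libraries put them in the same gene. The FPKM of reference transcripts and of transcripts assembled with them were summed per locus. Loci of at least 200 nt were rescaled by the median of ratios over 13163 loci above 0 in all libraries, to a mean library total of 1000000. Loci at 1 or more in at least 3 libraries (14045) were tested on log2(value + 1), a scale that understates the change of low genes. All 9 libraries were fitted with limma 3.58.1 in R 4.3.3 (eBayes with trend; Benjamini-Hochberg over all loci; threshold 0.05). Fits were tested on simulated data. Tables were made with Python 3.11.15 and pandas 2.3.3.

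After removal of group means, same-numbered libraries correlated in every pair of groups (0.16 to 0.515, other pairs -0.412 to 0.285). The replicate number was therefore also fitted as a block, and its source is these correlations and the numbers in the titles. Pairs of libraries numbered 1 gave 0.476 to 0.515. Replicates 2 and 3 were not set apart: TAC replicate 3 gave 0.285 with sham replicate 2 and 0.16 with sham replicate 3. Members and gene lists were chosen with earlier results of these data known. Genes were named by rule: all called members, the 5 highest members (1 called member is not reported here), paralog forms with their parents, stalk genes, members at 0 throughout a group, and the 3 called genes with the largest change in each other list; other genes given with values, such as Rps7, Rpl6-ps1, Rpl28 and Rps23, were chosen after their values were seen. Alternatives were other pseudocounts (0.1 and 10), filters and scalings, reference transcripts alone, the block, fewer groups or replicates, no trend, and each library left out. Summing loci of 1 symbol, and the summed level over loci with introns, were added after the data were seen.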

Additional observations from a re-analysis of the deposited data

How the results depend on the processing

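The count of 5 members called in fetal against sham became 10 with equal library totals, 10 with upper-quartile scaling, 15 with the replicate block and 10 with replicates 2 and 3 only (9 higher, and Rps21 lower at -3.36); leaving out 1 library gave 3 to 9. The count of 5 in fetal against TAC became 3 with no filter, 8 with equal library totals, 11 with the replicate block, 3 with replicates 2 and 3 only and 3 with no trend; leaving out 1 library gave 3 to 8. Other alternatives left both within 1.5 times, and the count of 0 in TAC against sham did not change. The block changed no call of a named gene other than those given in the report. The cause was not tested. Apart from the block (48.1% of all loci called against sham and 48.2% against TAC), the share of all loci called under these settings is not given here. The changes in count are therefore not read as results about the members. Equal totals moved the median log2 difference of all loci to 0.19 in fetal minus sham and 0.24 in fetal minus TAC, and that of the members to 0.56 and 0.70.

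Uncalled differences near 0 in TAC minus sham changed sign: Rpl15 became 0.20 with reference transcripts only and -0.24 to 0.39 with 1 library left out, Rpl3 -0.39 to 0.058, and Rps4x on chromosome 4 -0.0075 with equal library totals and -0.084 to 0.25 with 1 library left out. With reference transcripts only, the calls of Mrpl34, Mrps23, Mrps34, Exosc2 and Gltscr2 were lost; Gltscr2 against TAC was also lost with equal library totals and with replicates 2 and 3 only. The summed share without the 5 highest members averaged 1.49% in fetal, 0.92% in TAC and 0.90% in sham libraries, and over loci with introns 1.48%, 0.90% and 0.90%. Depth may limit the shortest and lowest loci, and single members rested on as few as 4 implied fragments in a library. Zeros of members may be failed estimates. Tested members at 0 numbered 4 in TAC replicate 1, 1 in fetal replicate 1 (Rpl36al) and 1 in fetal replicate 3. The remaining libraries had 0, among them TAC replicate 2, the library with the lowest implied depth. Fetal replicate 1 had the highest implied depth. The part of depth in these zeros was not tested.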
